A study of Caenorhabditis elegans with 18 samples.

Results

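The genes described here are the 81 Caenorhabditis elegans genes that the array annotation lists under an abu or a pqn name, of 17603 genes measured by a probe set that maps to a single gene. A gene was taken as a member when WormBase release 180, as the deposited annotation gives it, named it abu or pqn followed by a number, and where a member had more than 1 such probe set the brightest over the 18 conditions was used. Of the 81 members, 10 were listed as abu and 71 as pqn. Under current names 14 are abu genes, 53 are pqn genes and 14 carry another name, so that pqn-5, pqn-40, pqn-46 and pqn-95 are given below as abu-15, abu-12, abu-13 and abu-14, and pqn-32 as dbd-8. The names group genes by a sequence feature or by 1 response, not by 1 function.

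In C. elegans, pqn stands for prion-like domains rich in glutamine and asparagine, and abu for genes activated when the unfolded protein response is blocked, as it is in mutants that cannot splice xbp-1. Several abu and pqn genes form a group of close paralogs that encode secreted, low-complexity proteins and help to build the flexible cuticle that lines the pharynx. That lining, like the body cuticle, is made before hatching and is shed and rebuilt at every moult. Other members are intracellular proteins, among them regulators of transcription, translation and membrane traffic.

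Whole animals of the wild-type strain N2 were grown at 20 °C in cultures of 10 ml with about 10000 larvae, and all carried the same genotype. The liquid medium was S-complete. Fed larvae hatched in it with Escherichia coli HB101 at 25 mg/ml, and starved larvae hatched in it with no bacteria, which holds them in the first larval stage (L1). Both were taken at 0, 1, 3, 6, 12, 15 and 24 h after hatching, and the labels call the fed larvae L1 up to 12 h, L1 to L2 at 15 h and L2 at 24 h. The other conditions were larvae whose food was removed at 12 h for a further 3 h (food removed), larvae given food at 12 h for a further 3 h (refed), larvae starved for 3 h in M9 buffer, and embryos at the 3-fold stage 2 h before hatching. Each condition was hybridized to 3 arrays, 54 in all, and the deposited value is their mean intensity with the authors' error of that mean, so a condition counts as 1 sample here.

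The median intensity of all 22548 worm probe sets was 35.1 to 41.2 across the 18 conditions, and 10873 to 12332 of them were detected, which in the authors' table means a detection p under 1e-10. The median error of detected probe sets was 8.82% to 10.7% of the mean. The fed arrays were hybridized on 3 days and the starved S-complete arrays on 3 others, with 0 days shared, so food and hybridization day cannot be told apart in that contrast. The M9 arrays shared all 3 days with the fed arrays, the embryo arrays shared all 3 with the starved arrays, and both food-change conditions shared 1 day of their own. Whole worms were measured, so more cells of a type and more RNA per cell cannot be told apart. Of the defining markers, all 3 of pharyngeal muscle, all 3 of intestine and all 4 of neurons were detected in at least 1 condition.

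Members were detected more often in fed than in starved larvae at each matched time, though only by 40 against 39 at 6 h. Of all 22548 worm probe sets, 11497 to 12332 were detected in fed larvae and 11362 to 11876 in starved larvae. At 0, 3 and 24 h fewer of all probe sets were detected in fed than in starved larvae. In fed larvae 57, 56, 46, 40, 52, 59 and 57 members were detected at 0, 1, 3, 6, 12, 15 and 24 h, and in starved larvae 43, 39, 37, 39, 38, 37 and 40. The embryo had 63 detected members and larvae whose food was removed at 12 h had 64. Larvae fed after 12 h of starvation had 39 and larvae in M9 had 34. Of all probe sets, 12230, 12018, 11640 and 10873 were detected in these conditions, in the same order. The M9 count of all probe sets was the lowest of the 18 conditions. The low member count in M9 is therefore not shown to be particular to the members. Over all conditions 31 members were detected in all 18, 72 in at least 1 and 9 in 0. Among the 9 were abu-2 and abu-3, which stayed at or near the intensity floor of 5. The highest means over the 18 conditions were those of pqn-53 (1464), abu-14 (1108) and pqn-59 (926), but intensities of different probe sets are not levels that can be set against each other.

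Over the 7 matched times, more members were higher than lower in fed relative to starved larvae. limma on the log2 means, with time as a factor, called 26 members higher in fed than in starved larvae and 8 lower at a Benjamini-Hochberg threshold of 0.05 over all worm probe sets, and 47 passed in neither direction. In either direction 34 members passed, where 30.3% of all probe sets did. That is 32.1% of members higher, where 13.5% of all probe sets were called higher, and 9.88% lower, where 16.8% were. At an unadjusted p under 0.05, 48 members (59.3%) passed, where 42.4% of all probe sets did. The median log2 difference was 0.32 over the members and 0 over all probe sets. At the top, 14 members were higher by more than 2 on the log2 scale, and of the 14 genes now named abu, 9 were called higher while abu-2, abu-3, abu-4, abu-5 and abu-12 were not. Of the 26 raised members, 24 were higher in fed larvae at 7 of 7 times, and of the 8 lowered members 6 were lower at 7 of 7. The count of higher members was 17 without 12 h, in a fit for which the share of all probe sets called is not given. When at least 1 of the 7 times was left out, 12 of the 34 calls were lost: pqn-26 in 6 cases, pqn-22 in 5, dbd-8, pqn-87 and pqn-90 in 4, abu-1, myrf-1 and srlf-36 in 3, abu-13 and pqn-13 in 2, and pqn-39 and pqn-67 in 1.

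For abu-8, the intensity in fed larvae at 0, 1, 3, 6, 12, 15 and 24 h was 1976 ± 416, 694 ± 151, 350.1 ± 68.7, 137 ± 36.3, 472 ± 142, 2107 ± 284 and 768 ± 190 (authors' error). In starved larvae it was 596 ± 193, 137 ± 36.3, 37.8 ± 18.3, 81.6 ± 27.1, 27.4 ± 15.8, 33.0 ± 17.2 and 40.2 ± 18.9 at the same times, and the probe set was detected at 0 and 1 h only. In fed larvae the signal was lowest at 6 h and high again at 15 h, whereas starved larvae had none above the detection limit after 1 h. The difference over the 7 times was 3.20 ± 0.62 on the log2 scale (SE, limma adjusted p = 0.0113).

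abu-10 differed by 4.12 ± 0.75 on the log2 scale (limma adjusted p = 0.00905). Its second, dimmer probe set gave 0.62 and did not pass (limma adjusted p = 0.0991). Its intensity ran from 60.3 through a median of 341 to 843 in fed larvae, and from 5 through a median of 14.1 to 319 in starved larvae, where it was detected at 0 of 7 times. Since a probe set below detection has only an upper bound, measured differences against such values give no order among members. For abu-10 this is a level at least 10.3-fold higher in fed larvae by the following rule. For each starved condition the lowest intensity of any detected probe set (20.8 to 22.9) or the measured value was taken, whichever was higher. The rule leaves out the errors, and a probe set can be undetected at far higher intensities, as abu-10 was at 319. Folds given here and below as at least are therefore estimates by this rule, not strict lower bounds. By the same rule abu-7 was at least 11.3-fold higher in fed larvae, with a log2 difference of 3.82 ± 0.77 (limma adjusted p = 0.0127). The abu-7 probe set is also assigned to abu-8 by the platform annotation, so these 2 genes share signal. abu-15, which neighbours abu-6 and abu-7 in RefSeq gene order, differed by 3.39 ± 0.73 (limma adjusted p = 0.0157), and abu-6 by 2.77 ± 0.58 (limma adjusted p = 0.0139).

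For abu-14, fed larvae had intensities of 1405 ± 195, 758 ± 117, 378 ± 109, 188 ± 50.5, 1897 ± 399, 1842 ± 319 and 2081 ± 386 at 0, 1, 3, 6, 12, 15 and 24 h. Starved larvae had 549 ± 157, 153 ± 38.2, 81.7 ± 26.7, 146 ± 37.2, 63.0 ± 23.2, 56.3 ± 21.9 and 62.3 ± 23.1. abu-14 therefore held a plateau in fed larvae at and after 12 h, and its log2 difference was 3.03 ± 0.69 (limma adjusted p = 0.0182). abu-11 had a lowest, median and highest intensity of 64.5, 274 and 609 in fed larvae, against 20.1, 30.2 and 226 in starved larvae, and differed by 2.73 ± 0.54 (limma adjusted p = 0.0121). abu-1, whose probe set is also assigned to pqn-2, differed by 1.84 ± 0.48 (limma adjusted p = 0.0285).

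Several pqn genes were also higher in fed larvae, with differing courses. pqn-74 had 70.6, 427 and 689 as its lowest, median and highest intensity in fed larvae, against 15.1, 25.3 and 169 in starved larvae, where it was detected at 0 of 7 times. Its log2 difference was 3.24 ± 0.64 (limma adjusted p = 0.0116). pqn-71 was highest in fed larvae at 0 h (1367 ± 274), was not detected at 6 h (59.5 ± 22.3), reached 426 ± 74.3 at 15 h and was again not detected at 24 h (51.1 ± 20.7). Its difference was 3.01 ± 0.62 (limma adjusted p = 0.0131). pqn-63 differed by 2.47 ± 0.54 (limma adjusted p = 0.0159) but was detected in 2 fed conditions only, at 0 and 15 h. Its highest fed value, 142 ± 39.9 at 24 h, was below the detection limit. A smaller difference of 1.41 ± 0.21 was measured for pqn-36 (limma adjusted p = 0.0049), which was detected in all 7 fed conditions and in 4 starved ones.

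**Figure D1:**
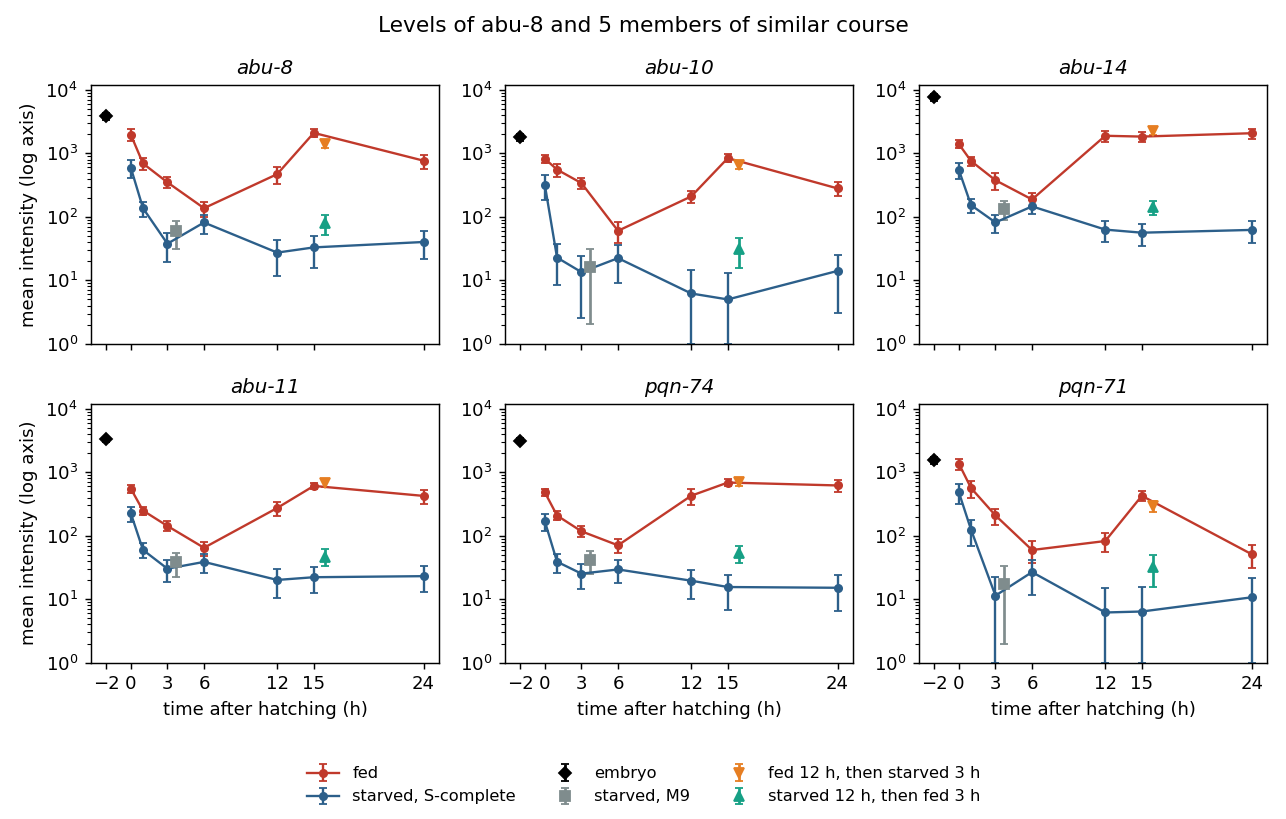
Mean intensity on a log axis against time after hatching for abu-8, abu-10, abu-14, abu-11, pqn-74 and pqn-71 in fed (red) and starved (blue) larvae, with the embryo, the M9 larvae and both food-change conditions as separate symbols; bars are the authors' errors, drawn down to an intensity of 1 where they reach lower. In each panel the fed line lies above the starved line and comes closest to it at 6 h, except for abu-10, where 0 h is closest, and the larvae whose food was removed lie far above those fed after starvation.

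A second course was led by dbd-8, with its fed maximum at 12 h instead of 15 h. Its intensity in fed larvae was 203 ± 33.5, 126 ± 21.8, 53.96 ± 13.7, 47.7 ± 12.9, 2516 ± 210, 255 ± 65.0 and 878 ± 84.0 at 0, 1, 3, 6, 12, 15 and 24 h. In starved larvae it was 15.5 to 56.5 and was detected at 0 of 7 times. The level was at least 114-fold higher in fed than in starved larvae at 12 h, at least 11.4-fold at 15 h and at least 41.2-fold at 24 h. Over the 7 times dbd-8 differed by 3.25 ± 0.83 on the log2 scale (limma adjusted p = 0.027).

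abu-13 reached 1637 ± 152 in fed larvae at 12 h, 200.1 ± 65.0 at 15 h and 746 ± 87.6 at 24 h, and its starved values were 23.7 to 40.6. Its 7 fed values all lay above its 7 starved values, and it differed by 2.64 ± 0.65 (limma adjusted p = 0.0239). pqn-13 reached 479 ± 73.8, 159 ± 46.9 and 449 ± 72.9 in fed larvae at 12, 15 and 24 h, with a difference of 2.80 ± 0.67 (limma adjusted p = 0.022). pqn-26 reached 244 ± 36.1, 95.6 ± 25.1 and 238 ± 40.0 at these times, with a difference of 2.04 ± 0.62 (limma adjusted p = 0.0453). The 15 h values of abu-13, pqn-13 and pqn-26 were below the detection limit. abu-12 had 405 ± 40.9, 103 ± 27.9 and 260.1 ± 35.2 at 12, 15 and 24 h, yet over the 7 times its 1.49 ± 0.58 did not pass (limma adjusted p = 0.0958).

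**Figure D2:**
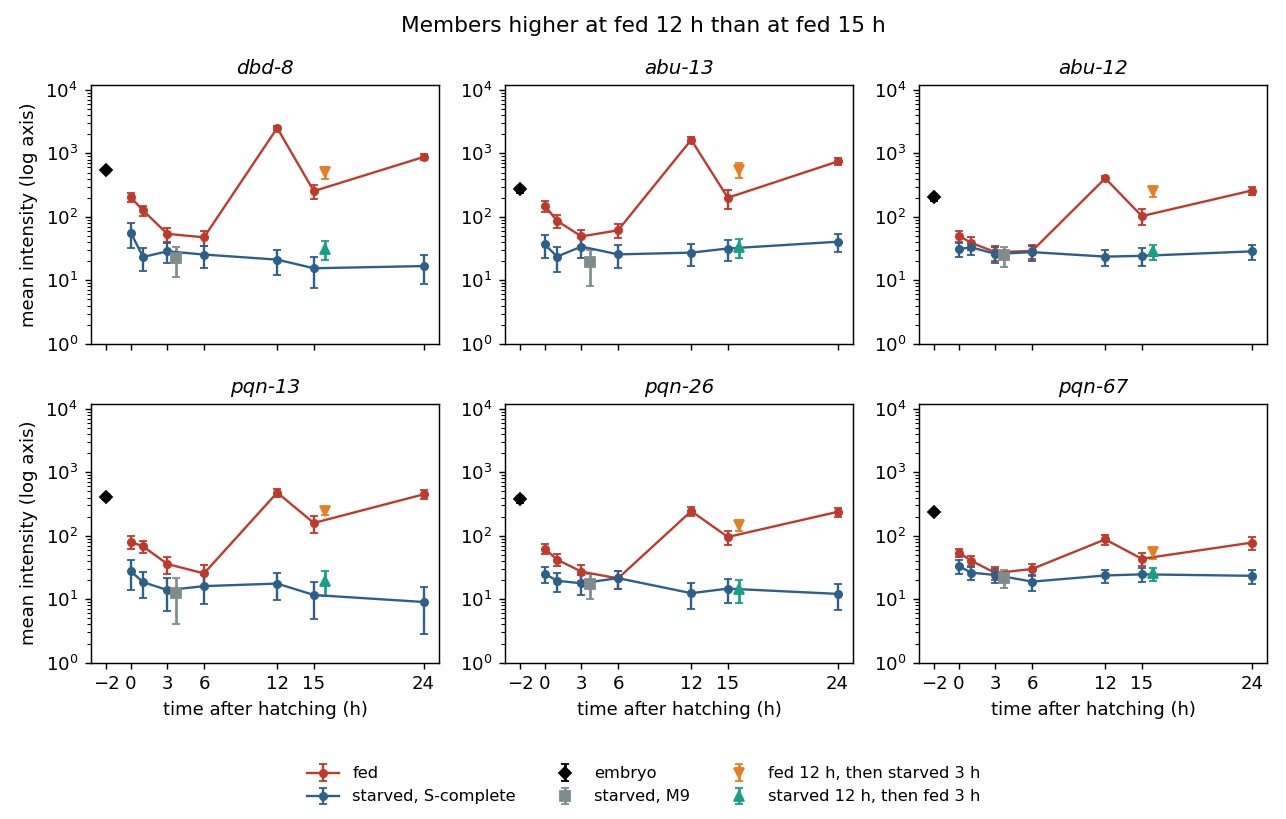
Mean intensity on a log axis against time after hatching for dbd-8, abu-13, abu-12, pqn-13, pqn-26 and pqn-67, with symbols and error bars as for abu-8. The fed line has its larval maximum at 12 h, a lower value at 15 h and a higher one at 24 h in every panel, and dbd-8 goes from 2516 at 12 h to 255 at 15 h.

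Among the 14 members raised by more than 2 on the log2 scale, 7 were detected in fed larvae at both 12 and 15 h. Of these, 5 were higher at 15 h than at 12 h and 2 were lower, and the ratio of 15 h over 12 h ran from 0.101 for dbd-8 to 5.21 for abu-7. In 12 of the 14 the fed minimum was at 6 h, when 2 of them were detected, against 11 at 15 h. The median food difference of the 14 was smallest at 6 h, 0.83 on the log2 scale with a range of -0.01 to 1.43, whereas the medians at 12, 15 and 24 h were 4.40, 5.25 and 4.31. These are differences of measured values, without the rule for undetected values. In starved larvae at 12, 15 and 24 h, 0 of the 14 passed the detection limit. The 14 were chosen by their difference over these same 7 times. Large differences and low starved values among them are therefore partly set by that choice.

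Likeness of course was described by Pearson's r of the log2 means over the 18 conditions, with undetected values included and conditions sharing hybridization days. Besides abu-8 itself, 11 members exceeded an r of 0.9 with abu-8: abu-7 (0.995), abu-6 (0.989), abu-15 (0.987), abu-11 (0.982) and abu-10 (0.979) were the most alike. With dbd-8 it was 5 members, led by pqn-13 (0.981), abu-13 (0.974), pqn-26 (0.961) and abu-12 (0.952), and abu-14 exceeded 0.9 with both. Among the 14 strongly raised members the 91 pairs had r from 0.459 to 0.997, with a median of 0.925. These members were chosen by their food difference over conditions that r also uses, so high r among them is partly set by that choice. By contrast 11 members had an r under -0.5 with abu-8, led by pqn-48 (-0.884).

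The other raised members changed less. pqn-73 differed by 1.11 ± 0.17 (limma adjusted p = 0.00542), pqn-90 by 1.01 ± 0.26 (limma adjusted p = 0.0256), pqn-67 by 0.93 ± 0.23 (limma adjusted p = 0.023) and pqn-76 by 0.75 ± 0.17 (limma adjusted p = 0.0169), all on the log2 scale. The probe sets of pqn-76 and pqn-90 are assigned to other members as well. pqn-22, stam-1, trpl-5, srlf-36 and pqn-87 differed by 0.31 to 0.59, and trpl-5 was detected in 0 conditions.

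Of the regulators among the raised members, myrf-1, a membrane-bound transcription factor required for moulting in C. elegans, had its own course. Fed larvae had 92.9 ± 13.9, 141 ± 18.6, 205 ± 23.9, 359 ± 50.5, 275 ± 25.0, 165 ± 18.1 and 293 ± 54.6 at 0, 1, 3, 6, 12, 15 and 24 h, and starved larvae stayed between 91.8 and 119. The myrf-1 fed maximum therefore fell at 6 h, the time at which most of the strongly raised members were lowest. Its difference was 0.95 ± 0.24 (limma adjusted p = 0.0253), with a higher fed value at 6 of 7 times. stam-1, an endosomal sorting protein, ranged from 149 to 286 in fed larvae and from 119 to 166 in starved larvae, and differed by 0.50 ± 0.09 (limma adjusted p = 0.00871).

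The 8 lowered members went the other way. pqn-48 had 96.7 ± 17.8, 182 ± 21.1, 215 ± 19.6, 189.5 ± 17.6, 157 ± 15.7, 130 ± 14.0 and 123 ± 16.3 in fed larvae at 0, 1, 3, 6, 12, 15 and 24 h. In starved larvae it had 263 ± 29.6, 321 ± 24.9, 489 ± 33.6, 678 ± 43.2, 997 ± 58.9, 1065 ± 75.8 and 1064 ± 74.3. Every fed value lay below every starved value, and the starved level was higher at each time up to 15 h than at the one before. The log2 difference was -2.01 ± 0.33 (limma adjusted p = 0.00641).

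pqn-62 had a lowest, median and highest intensity of 57.6, 99.3 and 169 in fed larvae, against 179, 200 and 246 in starved larvae, a difference of -1.11 ± 0.22 (limma adjusted p = 0.0113). pqn-53 had 823, 1099 and 1219 in fed larvae, against 1532, 1915 and 2248 in starved larvae, a difference of -0.83 ± 0.13 (limma adjusted p = 0.00535). Neither gene's groups overlapped. pqn-75 was detected at 0 of 7 times in fed larvae, where it reached 109 ± 32.9 at 15 h, and at 5 times in starved larvae, where it was highest at 6 h (153 ± 32.7). Its difference was -1.66 ± 0.38 (limma adjusted p = 0.0184), or at least 2.64-fold lower in fed larvae. pqn-41, which encodes a glutamine-rich protein needed for death of the linker cell in C. elegans males, differed by -0.57 ± 0.06 (limma adjusted p = 0.00171), and pqn-18, pqn-24 and pqn-39 by -0.53, -0.48 and -0.31.

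**Figure D3:**
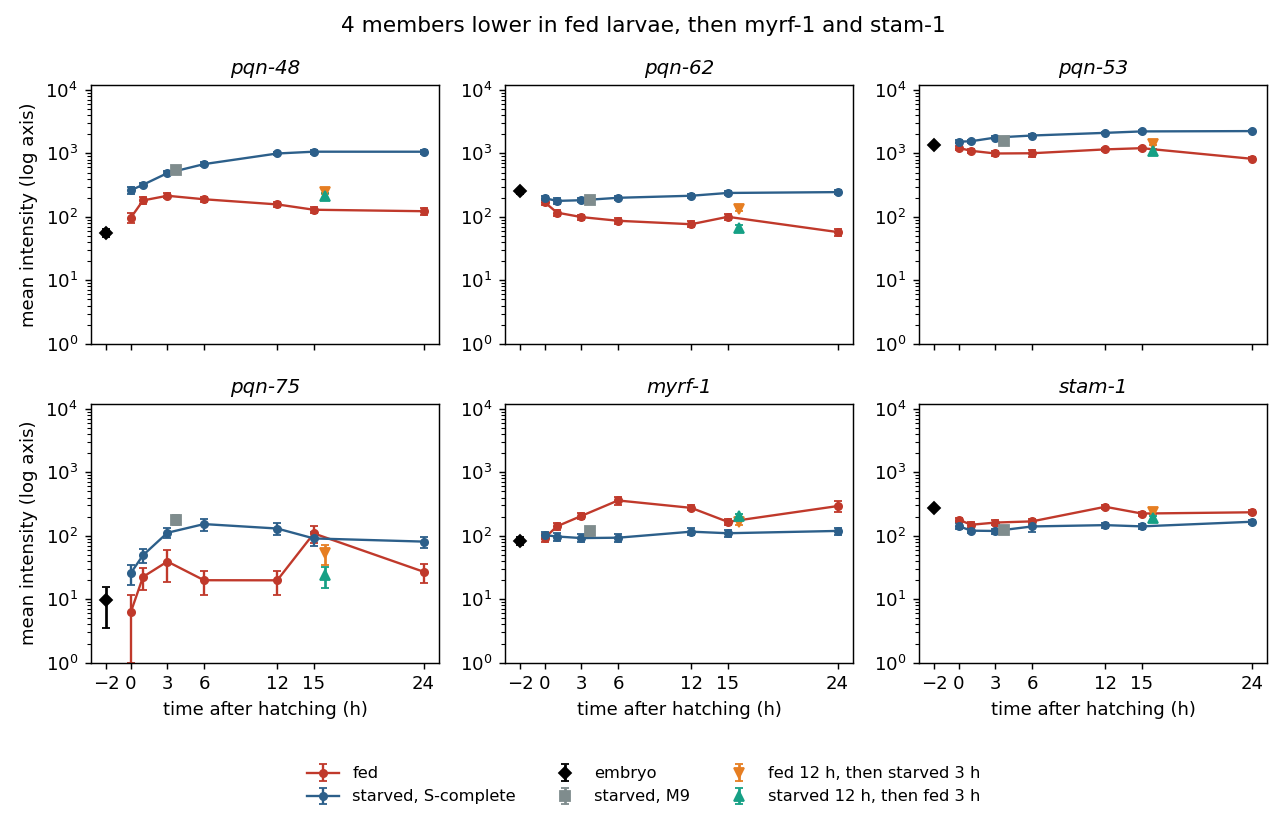
Mean intensity on a log axis against time after hatching for pqn-48, pqn-62, pqn-53, pqn-75, myrf-1 and stam-1, with symbols and error bars as for abu-8. The fed line lies below the starved line throughout for pqn-48, pqn-62 and pqn-53 and crosses it at 15 h for pqn-75, whereas myrf-1 has its fed maximum of 359 at 6 h.

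All 7 fed values lay above all 7 starved values in 3 members (abu-13, trpl-5 and srlf-36), where 3.52% of all probe sets did so. They lay below in 5 members (pqn-24, pqn-41, pqn-48, pqn-53 and pqn-62), where 6.06% of all probe sets did so. Several regulators among the members had a mean difference near 0 over the 7 times: mdt-30, a Mediator subunit, with 0.00 ± 0.10 in size, ptrn-1, which binds microtubule minus ends, with -0.02 ± 0.08, scc-2, a cohesin loader, with 0.04 ± 0.08, and ebax-1, a ubiquitin ligase subunit, with 0.00 ± 0.10. None of these passed (limma adjusted p = 0.743 or more). At single times each took both signs. ebax-1 ran from -0.42 at 15 h to 0.37 at 12 h, and mdt-30 from -0.44 at 24 h to 0.35 at 3 h. The authors' test of whether the food difference changed with time, adjusted here, passed for ebax-1, mdt-30 and ptrn-1 and not for scc-2. It passed for 54.7% of all probe sets, so a mean near 0 does not show that food made no difference. pqn-59, the C. elegans relative of the stress granule protein UBAP2L, had 752 to 1250 in fed larvae and 603 to 1219 in starved larvae, and differed by 0.32 ± 0.16 (limma adjusted p = 0.165).

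**Figure D4:**
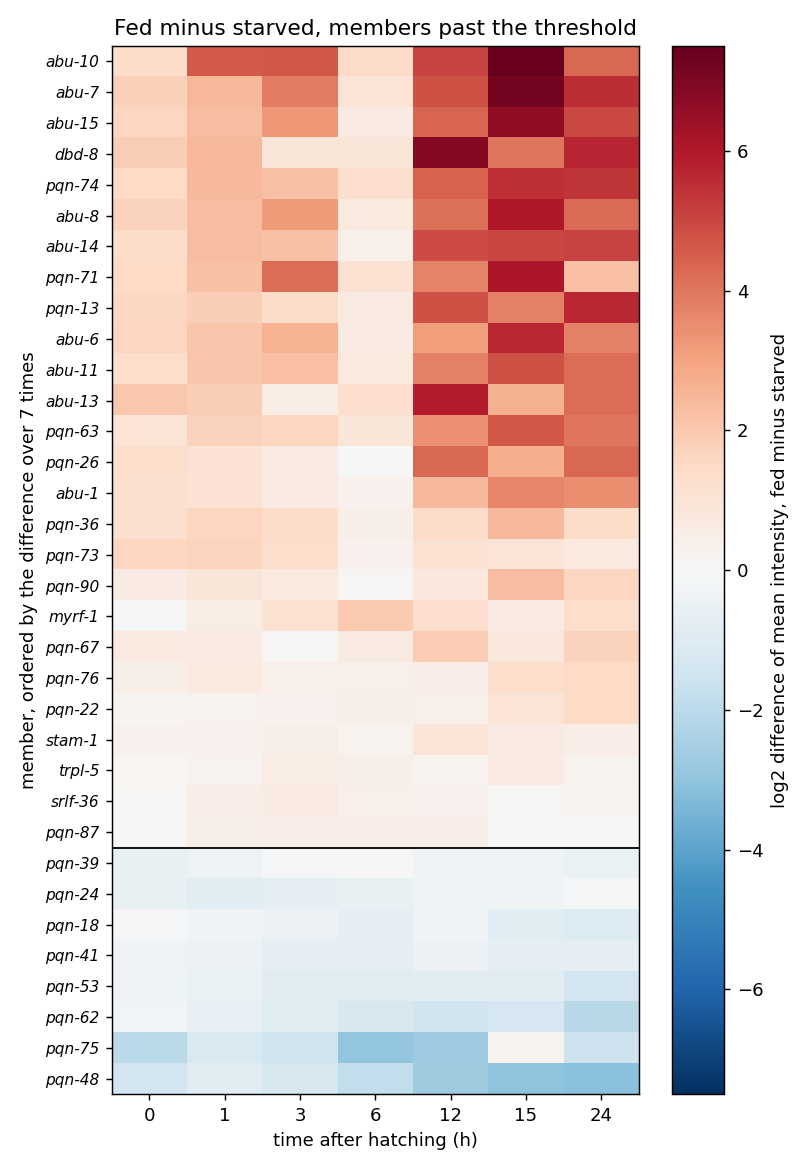
Log2 difference of mean intensity, fed minus starved, for the 34 members that passed the threshold, in rows ordered by their difference over 7 times, with time after hatching in columns. Red marks higher and blue lower in fed larvae; the darkest cells lie at 12, 15 and 24 h in the upper 14 rows, and the 6 h column is pale in the same rows.

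Compared time by time, 15 members were called higher and 5 lower in fed larvae at 1 or more times, all of the higher ones at 12, 15 or 24 h. The share of all probe sets called at 1 or more times was not counted, so these counts only describe the members. The authors' deposited p-values, of pairs and of analyses of variance, were Benjamini-Hochberg adjusted here and set against 0.05. Calls and adjusted p given as from the authors' deposited table mean this, not calls made by the authors. At 0, 1 and 3 h the authors' deposited table called 0 members after adjustment over all probe sets, where 0.0%, 0.00443% and 1.03% of all probe sets did, and 8, 20 and 21 members (9.88%, 24.7% and 25.9%) had an unadjusted p under 0.05, where 6.3%, 14.3% and 21.5% of all probe sets did. The test recomputed from the means and errors called 0 members at these times, where 0.0% of all probe sets passed. It therefore decides nothing there. At 6 h the authors' deposited table gave 1 lower member, pqn-48 (-1.84 ± 0.16, adjusted p = 0.0301), where 0.798% of all probe sets were lower, and 0 higher, where 0.763% were (1.56% in either direction). The recomputed test called 0 members at 6 h, where 0.0% of all probe sets passed, so it decides nothing there either. The 1 lower member is 1.23% of members, near the share of all probe sets, and is no result about the members as a group. Log2 differences of pairs are given with an SE propagated from the authors' errors.

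At 12 h, 6 members were higher in fed larvae by the authors' deposited table, where 4.59% of all probe sets were, and 3 were lower, where 5.3% were. The higher ones were dbd-8 (6.89 ± 0.62), abu-13 (5.90 ± 0.57), abu-14 (4.91 ± 0.61), pqn-13 (4.76 ± 0.69), stam-1 (0.96 ± 0.15) and pqn-96 (0.80 ± 0.21). The lower ones were pqn-48 (-2.66 ± 0.17), pqn-62 (-1.49 ± 0.18) and pqn-53 (-0.87 ± 0.10). Of these, dbd-8, abu-13 and pqn-13 share the course with a 12 h maximum. In either direction 9 members passed at 12 h, where 9.89% of all probe sets did.

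At 15 h, 9 members were higher in fed larvae by the authors' deposited table, where 2.19% of all probe sets were, and 4 were lower, where 2.5% were, or 13 in either direction, where 4.69% were. abu-7 differed by 7.17 ± 1.18 (adjusted p = 0.00902 from the authors' deposited table), abu-15 by 6.66 ± 0.92, abu-8 by 5.99 ± 0.78 (adjusted p = 0.0193 from the same table), abu-14 by 5.03 ± 0.62 and abu-11 by 4.78 ± 0.66. By the rule used for abu-10, the fed level was at least 93.8-fold higher for abu-15, at least 88.7-fold for abu-7 and at least 63.8-fold for abu-8. The other higher members were pqn-54 (4.48 ± 0.59), pqn-94 (2.80 ± 0.31), pqn-91 (2.35 ± 0.43) and stam-1 (0.67 ± 0.16), and the lower ones pqn-48, pqn-62, pqn-53 and pqn-18. pqn-94 differed by -0.02 ± 0.30 at 6 h and had 1376 ± 156 in fed larvae, against 197 ± 35.2 in starved larvae, at 15 h. abu-10 measured 7.40 ± 2.29 against a starved value at the floor of 5, a level at least 37.7-fold higher in fed larvae, and missed the threshold (adjusted p = 0.0547 from the authors' deposited table).

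At 24 h, 7 members were higher by the authors' deposited table, where 3.87% of all probe sets were, and 5 were lower, where 3.91% were, or 12 in either direction, where 7.78% were. dbd-8 (5.71 ± 0.71), pqn-13 (5.63 ± 1.03), abu-14 (5.06 ± 0.60), abu-15 (4.94 ± 0.86), abu-13 (4.20 ± 0.48), abu-6 (3.78 ± 0.59) and pqn-22 (1.48 ± 0.15) were higher. pqn-48 (-3.11 ± 0.22), pqn-62 (-2.09 ± 0.20), pqn-53 (-1.45 ± 0.10), pqn-65 (-1.03 ± 0.22) and pqn-18 (-1.03 ± 0.15) were lower. pqn-57, whose probe set is also assigned to abu-9, had 125 ± 12.6 in fed larvae at 15 h and 159 ± 38.7 at 24 h, was not detected in any other condition except after food removal (66.2 ± 12.7), and passed at neither time. Unadjusted, 27 members (33.3%) had p under 0.05 at 12 h, 39 (48.1%) at 15 h and 33 (40.7%) at 24 h, where 28.5%, 24.6% and 27.4% of all probe sets did. The recomputed test called 10 members at 12 h, 9 at 15 h and 10 at 24 h, where 9.61%, 2.76% and 10.4% of all probe sets passed.

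Whether the food difference changed with time was tested by the authors in a 2-factor analysis of variance. With the authors' deposited p-values adjusted here, the interaction passed for 56 members, where 54.7% of all probe sets passed. Food passed in the same way for 69 members, where 68.9% of all probe sets did, and time for 58, where 60.5% did.

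Within fed larvae, whose arrays shared their days, the differences between successive times were large in the means, but 0 members passed an adjusted test. For 6 h minus 0 h abu-15 differed by -4.10 ± 0.54 on the log2 scale, abu-8 by -3.85 ± 0.49 and abu-14 by -2.90 ± 0.44. For 15 h minus 12 h abu-8 differed by 2.16 ± 0.47, abu-15 by 2.33 ± 0.56 and pqn-94 by 2.95 ± 0.31, whereas dbd-8 differed by -3.30 ± 0.39 and abu-13 by -3.03 ± 0.49. For 6 h minus 0 h the recomputed test called 0 members (0.0% of all probe sets), with 28 at an unadjusted p under 0.05, where 22.7% of all probe sets were. For 12 h minus 6 h, 15 h minus 12 h and 24 h minus 15 h the authors' deposited table called no member (0 each), where 0.248% (0.173% higher and 0.0754% lower), 0.00887% and 0.0% of all probe sets passed. In the same comparisons 16, 21 and 12 members had an unadjusted p under 0.05, where 16.2%, 12.3% and 12.2% of all probe sets did. The recomputed test called 0 members in each, where 0.0% of all probe sets passed. In starved larvae 0 members passed by the recomputed test for 6 h minus 0 h and for 24 h minus 6 h (0.0% of all probe sets in both), with 10 and 6 at an unadjusted p under 0.05, where 12.8% and 8.16% were.

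The embryo value was the highest of the 18 conditions for 22 of the 81 members, for 13 of the 26 called higher in fed larvae and for 9 of the 14 most raised. How many of all probe sets are highest in the embryo was not counted, so whether these counts are particular to the members is not shown. All 14 were detected in the embryo, and larvae that hatched with food had 0.0803 (pqn-63) to 0.888 (pqn-71) of the embryo level at 0 h, and the 6 of them detected in larvae that hatched without food had 0.0677 (abu-11) to 0.314 (pqn-71) of it. abu-14 had 1405 ± 195 in fed larvae at 0 h and 549 ± 157 in starved larvae at 0 h, against 7755 ± 954 in the embryo. abu-8 had 1976 ± 416 in fed and 596 ± 193 in starved larvae, against 3900.4 ± 501 in the embryo.

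For starved larvae at 0 h minus the embryo, which share hybridization days, the authors' deposited table gave 3 lower members, where 1.25% of all probe sets were lower, and 0 higher, where 1.15% were (2.4% in either direction). They were pqn-35 (-1.95 ± 0.15), pqn-91 (-1.30 ± 0.34) and abu-5 (-1.18 ± 0.31), and 33 members had an unadjusted p under 0.05, where 25.4% of all probe sets did. The abu-5 and pqn-91 probe sets are assigned to paralogs as well. abu-14 differed by -3.82 ± 0.45, larger in size, and did not pass in the authors' deposited table (adjusted p = 0.116). For fed larvae at 0 h minus the embryo 0 members passed (0.0% of all probe sets), with 18 at an unadjusted p under 0.05 in the authors' deposited table, where 16.2% were. The recomputed test called 0 members, where 0.0% of all probe sets passed.

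When food was given for 3 h after 12 h of starvation, the strongly raised members were far below the level of larvae fed throughout. abu-8 had 78.8 ± 26.6 in these refed larvae, against 33.0 ± 17.2 in larvae starved for 15 h and 27.4 ± 15.8 in larvae starved for 12 h. abu-14 had 143 ± 36.6 in refed larvae, against 56.3 ± 21.9 in larvae starved for 15 h. Of the 14, only abu-14 was detected in refed larvae, and 0 were detected in larvae starved for 15 h, so no ratio between those conditions is given for the others. The fed 15 h level was at least 6.03-fold (pqn-63) to 46.5-fold (abu-15) higher than the refed level in the 10 members detected at fed 15 h and not in refed larvae. The choice of these 10 used their fed 15 h values and detection, so the size of these folds is partly set by it.

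The refed minus starved 12 h comparison in the authors' deposited table gave 1 lower member, where 1.85% of all probe sets were lower, and 0 higher, where 1.36% were (3.21% in either direction). It was pqn-62, with 67.7 ± 7.59 in refed larvae and 215 ± 14.8 in larvae starved for 12 h (-1.67 ± 0.19, adjusted p = 0.0408 from the authors' deposited table). pqn-48 had 209.9 ± 28.7 in refed larvae, against 997 ± 58.9 in larvae starved for 12 h, and did not pass (-2.25 ± 0.21, adjusted p = 0.0787 from the authors' deposited table). Against larvae starved for 15 h the authors' deposited table called 0 members, where 2.04% of all probe sets passed, and the recomputed test called 2, where 1.66% did; 20 members had an unadjusted p under 0.05 in each of these comparisons, where 24.1% (12 h) and 21.9% (15 h) of all probe sets did. myrf-1 had 201.5 ± 21.1 in refed larvae, against 109 ± 14.2 in larvae starved for 15 h (0.88 ± 0.24, adjusted p = 0.128 from the authors' deposited table).

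When food was removed for 3 h after 12 h of feeding, the strongly raised members were all detected. abu-14 had 2253 ± 297 after removal, against 1842 ± 319 in larvae fed for 15 h and 1897 ± 399 in larvae fed for 12 h. abu-8 had 1413 ± 199 after removal, against 2107 ± 284 in larvae fed for 15 h and 472 ± 142 in larvae fed for 12 h. The 11 also detected at fed 15 h were at 0.612 (abu-7) to 1.99 (dbd-8) of that level after removal, with a median of 0.794. Relative to fed 12 h, the moment of removal, 6 of the 10 detected in both were higher in the mean, up to 3.19-fold for abu-7, and dbd-8 was lowest, with 507 ± 113 after removal and 2516 ± 210 in larvae fed for 12 h. The authors' deposited table called 0 members against fed 12 h, where 0.0266% of all probe sets passed, and 0 against fed 15 h, where 0.00443% did. Unadjusted, 20 and 8 members had p under 0.05, where 16.4% and 9.7% of all probe sets did. The recomputed test called 0 members in both, where 0.0% of all probe sets passed. A p that misses the threshold does not show that these levels were equal.

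The food-change conditions were hybridized on the same day as each other, and their difference was tested after the data had been seen. By the recomputed test 11 members were higher in larvae whose food was removed than in refed larvae and 0 were lower, where 2.26% of all probe sets were higher and 2.22% lower (4.48% in either direction), and 40 members had an unadjusted p under 0.05, where 25.7% of all probe sets did. They were abu-15 (4.97 ± 0.62), abu-7 (4.54 ± 0.59), abu-1 (4.43 ± 0.49), pqn-54 (4.22 ± 0.64), abu-14 (3.98 ± 0.42), abu-11 (3.82 ± 0.46), abu-6 (3.77 ± 0.44), pqn-74 (3.72 ± 0.45), pqn-63 (3.68 ± 0.69), pqn-72 (3.18 ± 0.46) and pqn-35 (1.28 ± 0.15), with adjusted p from 0.0448 (abu-1) to 0.0492 (abu-7) by the recomputed test. abu-8 (4.16 ± 0.53) and abu-10 (4.42 ± 0.75) missed the threshold. Of the 14 strongly raised members, 13 were not detected in refed larvae, and their level was at least 7.06-fold to 31.4-fold higher after removal.

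**Figure D5:**
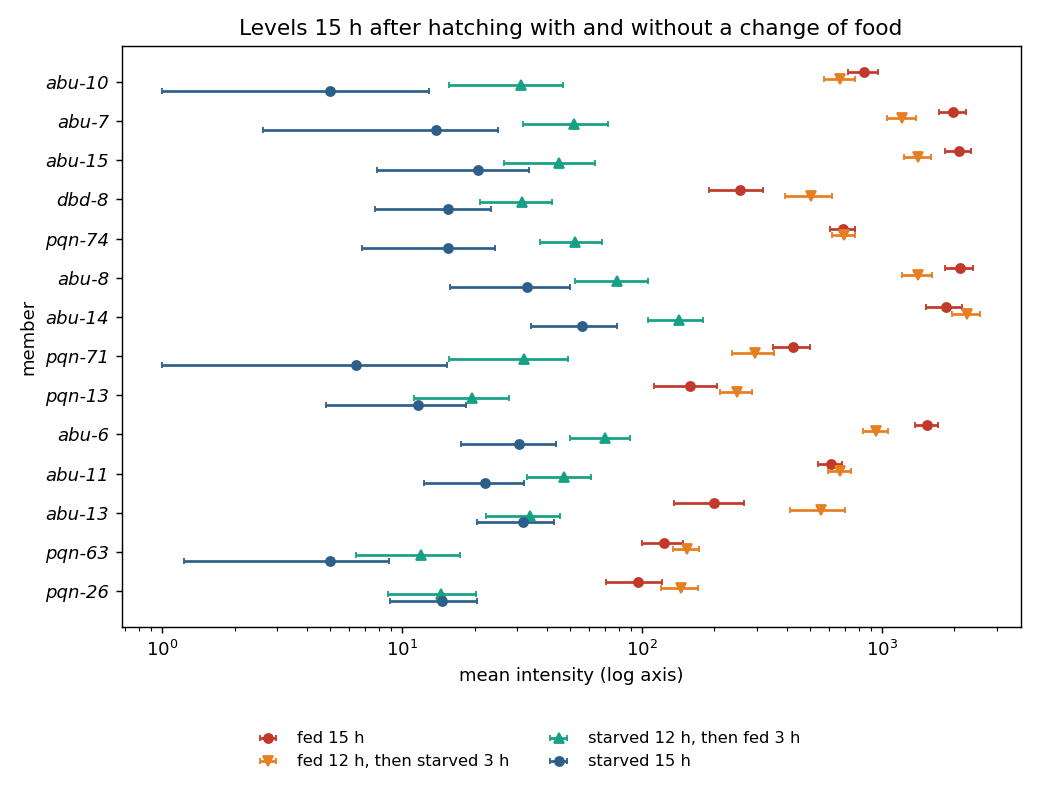
Mean intensity on a log axis for the 14 members raised by more than 2 on the log2 scale, in larvae 15 h after hatching that were fed throughout, had food removed at 12 h, were refed from 12 h, or were starved throughout; bars are the authors' errors, drawn down to an intensity of 1 where they reach lower. Both conditions that were fed for the first 12 h lie to the right of both that were starved for the first 12 h in every row.

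Starvation in M9 was compared with starvation in S-complete at 3 h. abu-8 had 59.3 ± 28.0 in M9 and 37.8 ± 18.3 in S-complete, and pqn-48 had 556 ± 57.0 in M9 and 489 ± 33.6 in S-complete. The authors' deposited table called 0 members (0.0% of all probe sets), with 4 at an unadjusted p under 0.05, where 3.18% were. The recomputed test called 0 members, where 0.0% of all probe sets passed. For fed larvae at 3 h minus M9, a food contrast within shared hybridization days, the recomputed test called 0 members (0.0% of all probe sets), with 19 at an unadjusted p under 0.05, where 3598 of 22548 probe sets were. abu-10 differed by 4.37 ± 1.29, abu-8 by 2.56 ± 0.74 and pqn-48 by -1.37 ± 0.20, and 0 of the 14 strongly raised members were detected in M9. For the 9 of them detected in fed larvae at 3 h, the fed level was at least 2.81-fold (pqn-74) to 14.5-fold (abu-10) higher than in M9. The choice of these 9 used their fed 3 h values and detection there, so the size of these folds is partly set by it.

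Genes of the pathways in which the members are known were described from lists of related genes. Of 18 genes of the unfolded protein response of the endoplasmic reticulum, 9 were higher and 3 lower in fed larvae over the 7 times by limma, where 13.5% of all probe sets were higher and 16.8% lower, with a median log2 difference of 0.36, against 0 for all probe sets. The 3 lower genes are no larger a share than the background. The chaperone genes hsp-4 (1.61 ± 0.35, limma adjusted p = 0.0157) and hsp-3 (1.10 ± 0.22), the disulfide isomerase gene pdi-2 (1.39 ± 0.30) and dnj-27 (1.32 ± 0.26) were among the higher. atf-6 (-0.73 ± 0.18) and pek-1 (-0.48 ± 0.06), which encode sensors of the response, and the engulfment receptor gene ced-1 (-0.39 ± 0.08) were the lower, and xbp-1 did not pass (0.18 ± 0.09, limma adjusted p = 0.185). hsp-4 had its highest fed intensity, 1032, at 15 h.

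Of 18 genes of pharynx structure, 7 were higher and 0 lower by limma, with a median of 0.34. Of all probe sets, 13.5% were higher and 16.8% lower in this fit. phg-1 (3.96 ± 0.68), phat-4 (3.59 ± 0.86), phat-2 (3.35 ± 0.68) and phat-1 (1.81 ± 0.28), which are expressed in the pharynx, were among the higher. By contrast phat-3 (-0.73 ± 0.38) and phat-6 (-0.29 ± 0.12) had the opposite sign and did not pass. The pharyngeal muscle markers myo-1, myo-2 and tni-4 passed in 0 of 3 cases, and their summed intensity was 621 to 1554 in fed larvae and 414 to 1548 in starved larvae, against 2434 in the embryo. The pharyngeal gland markers phat-1, phat-2 and phat-5 passed as higher in 3 of 3 cases and summed to 476 to 2752 in fed larvae and 90.2 to 1368 in starved larvae, against 7501 in the embryo. The part of pharyngeal cell content in the members' differences was not tested.

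Of 20 moulting genes 9 were higher and 0 lower by limma, with a median of 2.26, led by mlt-8 (3.73 ± 0.83), wrt-10 (3.65 ± 0.76), dpy-7 (3.26 ± 0.98) and mlt-9 (3.25 ± 0.74). Other markers moved with food in both directions: 1 of 3 hypodermal markers was higher and 1 lower, 1 of 3 intestinal markers was higher and 1 lower, 1 of 3 body wall muscle markers was lower, 3 of 4 neuronal markers were lower and 3 of 3 germ line markers were higher. For the moulting genes and these markers the shares of all probe sets are again 13.5% higher and 16.8% lower. Lists of 3 or 4 markers are too small to set against them.

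Probe sets differ in how well they separate the paralogs. The platform annotation assigns the probe sets of 9 members to several genes (abu-1, abu-5, abu-7, pqn-57, pqn-76, pqn-78, pqn-79, pqn-90 and pqn-91), and 15 members are read by a probe set of the x_at type, which can take up signal from similar transcripts. In RefSeq gene order abu-15, abu-6 and abu-7 are neighbours, as are abu-5, pqn-78 and pqn-79, and pqn-90 and pqn-91. Of 27 further probe sets of the members, 11 belonged to 8 members called over the 7 times, all 11 had the same sign and 10 were called in the same direction. For abu-8 the second probe set gave 3.27 and for abu-14 3.87, against 3.20 and 3.03 for the ones used. The exception was abu-10, whose second probe set gave 0.62 (limma adjusted p = 0.0991) and was detected in 2 conditions. These counts concern the fit over 7 times only, and with the dimmest probe set per gene some calls at single times were lost.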

How the data were processed

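Expression was measured on 1-colour Affymetrix arrays of whole worms. The deposited values are mean intensity per condition of 3 arrays on a linear scale, with values below 5 raised to 5, and an error of each mean, per the file headers and notes. The sources used here do not name the software, background method or normalization. The deposited detection values were treated as a score, and the authors' cut of 1e-10 was used. The authors' p-value tables hold pairwise tests and analyses of variance, per the file headers.

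From these, 77 control probe sets were dropped and 22548 kept. log2 of the means (no pseudocount) was fitted with limma 3.58.1 (R 4.3.3; lmFit, eBayes) on 14 conditions, those fed or starved in S-complete, with food and time as factors, so the matched times stand in for replicates. Pairs used the authors' deposited p-value, Benjamini-Hochberg adjusted over all worm probe sets at 0.05; where the authors gave none, the difference of means was divided by the combined errors with 4 degrees of freedom (the recomputed test). The deposited intensity errors were used as standard errors. Both tests were tested on simulated data. The scripts used Python 3.11.15 and SciPy 1.17.1. The deposited notes call the 3 arrays biological replicates, and their number limits the precision. Current names came from RefSeq and the platform annotation, and all 81 members matched.

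The members, gene lists and tests were chosen with earlier results of these data known. Named genes are mainly members past the threshold and detected in the higher condition, by size of difference. The rule also took 6 abu genes throughout (abu-1, abu-8, abu-10, abu-11, abu-14, abu-15), the 3 with the highest mean, and every member against the main direction. Regulators, members with a near-zero difference and list genes beyond the top 4 were added after their values were seen. Other members, such as trpl-5 and abu-12, were also named outside this rule. No sequence is shown, since protein and promoter sequences were not used here.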

Additional observations from a re-analysis of the deposited data

Results flagged for a closer look

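For pqn-72 the food difference took both signs: fed minus starved ran from -1.86 at 6 h to 1.40 on the log2 scale across the times. Its intensity was 19.1 ± 6.18 in fed larvae at 6 h, where it was not detected, against 69.2 ± 11.3 in starved larvae, and 127 ± 17.4 in fed larvae at 15 h, against 64.7 ± 12.98 in starved larvae. srlf-37 ran from -1.70 at 15 h to 1.34 at 3 h, with its values below detection in both conditions at both times, and pqn-82 from -1.002 to 1.83 with its probe set detected in 0 conditions. The change of the difference with time was tested by the authors. With their p-values adjusted here it passed for 56 members, where 54.7% of all probe sets passed.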

How the results depend on the processing

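No called member changed direction under any setting. The count of members higher in fed larvae, 26, was 17 without 12 h and 16 without 15 and 24 h, a setting chosen after seeing the data. The share of all probe sets called in fits with fewer times is not given, so the lower counts are no result about the members. Leaving out each of the 7 times in turn kept 22 of the 34 calls every time, and the 12 that were lost at least once included dbd-8, abu-13, pqn-13, pqn-26, abu-1 and myrf-1. Quantile normalization and an intensity trend each lost 0 of the 34 calls, and no time factor lost 1 (pqn-71). The dimmest probe set per gene, in place of the brightest, also lost 1 (abu-10). Over this fit and the fed against starved pairs at single times together, that setting lost 6 calls and kept 11. With p-values adjusted over detected probe sets, the fed against starved counts became 1 at 3 h, 6 at 6 h, 15 at 12 h, 23 at 15 h and 20 at 24 h, where 7.75%, 14.3%, 26.8%, 18.6% and 23.4% of the probe sets tested passed. In fed larvae they became 9 for 6 h minus 0 h and 2 for 12 h minus 6 h (10.8% and 1.81% of probe sets). They became 7 for starved 0 h minus the embryo, 7 for refed minus starved 12 h, 5 for refed minus starved 15 h and 28 for food removed minus refed (14.2%, 16.2%, 11.8% and 21.5% of probe sets). These counts rest on fewer probe sets tested. With the recomputed test, 17 pairwise calls of single members no longer passed and 22 did. Its counts were 0 at 6 h, 10 at 12 h, 9 at 15 h and 10 at 24 h, against 1, 9, 13 and 12, and 8 for starved 0 h minus the embryo, 4 for refed minus starved 12 h and 2 for refed minus starved 15 h (2.86%, 5.21% and 1.66% of probe sets); the cause was not tested. Single arrays could not be paired because the deposited values are 1 mean per condition. The limma fit matched fed and starved conditions by time. The planned description of cysteine content and promoters was not run. Members below detection have only a bound on their level.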

Other observations

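The 2 probe sets of pqn-52 disagreed. They correlated with an r of 0.160 over the 18 conditions, the brighter gave 474 in the embryo and the other 90.8, and the other was lower in fed larvae by limma (-0.43, adjusted p = 0.00916), whereas the brighter was not called (0.27, limma adjusted p = 0.25).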
